A study of Mus musculus with 8 samples.

Results

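The 8 genes described here belong to the pathway of YAP, the transcriptional coactivator that the Hippo kinases hold out of the nucleus. They are Yap1 and Wwtr1, which encode YAP and its partner TAZ, Tead1, which encodes a DNA-binding factor that both need, and 5 genes known as YAP targets or feedback regulators, Ccn1, Ccn2, Amotl2, Ajuba and Lats2. They were taken by name, but with earlier results of these data known, as were the lists of genes set beside them. Shares of all genes given beside their counts therefore describe these data and test nothing. All 8 were found among the 16958 genes with values in a table of mouse intestinal crypts. The crypts came from C57BL/6 mice, aged 8 weeks per the sample labels, with 10 weeks as the upper age in the protocols. The libraries are of 2 genotypes. The setdb1 iIEC-KO libraries carry the titles VEMD2, VEMD3 and VEMD4 as well as VEMD6 and VEMD8. The remaining library, WT, is from setdb1fl/fl crypts. Setdb1 encodes a methyltransferase of lysine on histone H3, and in the knockouts a tamoxifen-switched recombinase under the Villin promoter, which is active in the intestinal epithelium, is meant to delete it. Per the labels, 1 tamoxifen dose of 800 mg/kg by gavage was given to the Cre mice and to their WT littermates. The labels do not spell out VEMD, so its number serves only as a name. The labels do not say how many mice went into a library.

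In textbook accounts, the kinases MST1 and MST2 activate LATS1 and LATS2, which phosphorylate YAP and TAZ so that they stay in the cytoplasm or are degraded. Unphosphorylated YAP enters the nucleus, binds TEAD factors and switches on genes such as Ccn1 and Ccn2, together with genes such as Lats2 and Amotl2 that restrain YAP in turn. In the gut, YAP is best known for its part in the repair of the epithelium after injury.

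Every group is 1 library, so no value carries an error, no difference was tested, and "higher" and "lower" describe these libraries alone. Values are FPKM, fragments scaled for gene length and library size, which may be compared between genes. The depth behind them is unknown. The tissue label was checked against markers of epithelium and crypts, with Epcam between 699.51 and 904.14 FPKM in knockouts and at 1080.24 in WT, and Lyz1, the lysozyme of Paneth cells, between 489.91 and 6844.14 in knockouts and at 4232.72 in WT. Log2 ratios to WT were taken after adding 1 FPKM to both values, and a gene was called at 2-fold or more. Only the 10862 genes that averaged 1 FPKM or more over the 6 libraries entered this rule, and they are called the tested genes although no statistical test was possible. The median log2 ratio of these genes was 0.09 in VEMD2, 0.12 in VEMD3 and 0.03 in VEMD4, then -0.23 in VEMD6 and -0.06 in VEMD8. Ratios said to be rescaled are given relative to these medians. The targeted gene, Setdb1, had 6.64 FPKM in VEMD2, 7.03 in VEMD3 and 5.49 in VEMD4, then 3.53 in VEMD6 and 4.95 in VEMD8, against 9.42 in WT. All 5 knockout libraries lay below WT, but VEMD6 alone passed 2-fold lower, with a log2 ratio of -1.20 that was -0.97 after rescaling, while VEMD2 and VEMD3 had -0.45 and -0.38. With 1 value per gene, loss of some exons need not be visible. Of the 7 crypt markers, 0, 1, 3, 5 and 2 were at least 2-fold lower from VEMD2 to VEMD8, and 1 each was higher in VEMD2, VEMD3 and VEMD4. After rescaling the count lower in VEMD6 was 2, namely Olfm4 and Lyz1. Without rescaling, 2.39%, 4.63%, 5.04%, 8.15% and 5.21% of all tested genes were called lower from VEMD2 to VEMD8. The shares called higher were 2.44% in VEMD2, 6.00% in VEMD3 and 7.11% in VEMD4. Of the 8 epithelial markers, Krt20 was called lower in VEMD2 and VEMD3, and Krt18 higher in VEMD3 and VEMD4. Krt20 was at 375.74 FPKM in VEMD2, 308.12 in VEMD3 and 1458.23 in VEMD6, against 774.53 in WT. Rescaled, Krt20 and Vil1 were also called higher in VEMD6. In bulk RNA, fewer cells of a type and less RNA per cell cannot be told apart.

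The sequences before the starts of Ajuba and Ccn1 are shown because these were the 2 genes that passed 2-fold. RefSeq windows on GRCm38.p6 ran from 250 bases before an annotated start, which need not be the outer end of the gene, to 50 after it. Such windows were at hand for 6 of the 8 genes, namely Yap1, Wwtr1, Ccn1, Amotl2, Ajuba and Lats2. They were searched on both strands for GGAATG, whose reverse complement is CATTCC, the core of the element that TEAD factors bind. Capitals mark the match in the lines below, each read 5′ to 3′ on the gene's strand.
Ajuba, the 250 bases before the start, chr14:54577662-54577911, minus strand: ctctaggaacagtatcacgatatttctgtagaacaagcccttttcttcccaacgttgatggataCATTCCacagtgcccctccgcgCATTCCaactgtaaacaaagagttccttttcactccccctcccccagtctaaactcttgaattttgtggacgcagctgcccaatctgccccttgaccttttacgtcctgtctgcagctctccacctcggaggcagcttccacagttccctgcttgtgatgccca
Ccn1, the 250 bases before the start, chr3:145649986-145650235, minus strand: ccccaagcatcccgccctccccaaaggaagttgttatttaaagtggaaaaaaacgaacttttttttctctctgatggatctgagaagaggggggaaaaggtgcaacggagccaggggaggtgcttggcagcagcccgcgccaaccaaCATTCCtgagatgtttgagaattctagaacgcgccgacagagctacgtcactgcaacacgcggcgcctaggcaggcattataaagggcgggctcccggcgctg
Yap1, 30 bases around the match, chr9:8004720-8004749, minus strand: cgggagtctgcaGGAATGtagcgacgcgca
Amotl2, 30 bases around the match, chr9:102717727-102717756, plus strand: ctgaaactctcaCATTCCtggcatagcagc

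All 6 genes had at least 1 match, against 16.6% of the 27025 genes with such a window and 14% of the 8804 that were also tested. Ajuba held 2 matches, which began 186 and 164 bases before the start. The match of Ccn1 began 103 bases before its start, that of Yap1 141 bases and that of Amotl2 65 bases, each counted to the window's start. For Amotl2 that start, 102717804, lies inside the gene's span, which begins at 102717091, and so does the match. For Yap1 the window's start is 8004596, while the span of this minus-strand gene reaches 8004638. Both windows of Wwtr1 overlap and share 1 match, and that of Lats2 lay 5 bases into the transcribed part in 1 of its 2 windows. Of 12 genes on a list of other YAP targets that had a window, 4 held the letters. So did 4 of 6 TEAD and VGLL factors, 4 of 11 junction and polarity regulators and 3 of 15 kinase cascade genes. Neither TGANTCA, the letters of an AP-1 site, nor a CArG box, the site of the serum response factor, stood in any member's window, while 7.81% and 1.63% of all windows held them. A match describes letters in a window and is not a measured binding site.

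Of the 8 genes, 7 were highest in VEMD3 or VEMD4, and 5 were lowest in WT, where Ccn2 shared its lowest value with VEMD6. Among all tested genes, to which Wwtr1 and Ccn2 did not belong, 39.8% were highest in VEMD3 or VEMD4 and 17.1% were lowest in WT. In 6 genes, namely Yap1, Tead1, Ccn1, Ccn2, Amotl2 and Ajuba, both VEMD3 and VEMD4 stood above the other 4 libraries, which held for 14.1% of tested genes. This pattern was chosen after the values were seen. By the 2-fold rule, the calls were Ajuba in VEMD2 and both Ajuba and Ccn1 in VEMD3 and VEMD4, all higher than WT, and none in VEMD6 or VEMD8. That is 1 of the 6 tested members in VEMD2, where 2.44% of all tested genes were called higher, and 2 in VEMD3 and in VEMD4, where 6.00% and 7.11% were. In VEMD6 and VEMD8, 5.04% and 4.36% of tested genes were called higher. No member was called lower, against 2.39%, 4.63%, 5.04%, 8.15% and 5.21% of tested genes from VEMD2 to VEMD8. Over the 6 libraries, highest against lowest, Ajuba and Ccn1 varied at least 2-fold, 2 of the 6 tested members, as did 37.1% of tested genes. With a pseudocount of 0.1 FPKM 4 of them did, beside 46.4% of tested genes, and with 5 FPKM 1 did, beside 18.7%. Wwtr1 and Ccn2 had means under 1 FPKM and were not tested. Amotl2 and Lats2, with means of 1.35 and 1.34 FPKM, were just above that minimum.

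**Figure D1:**
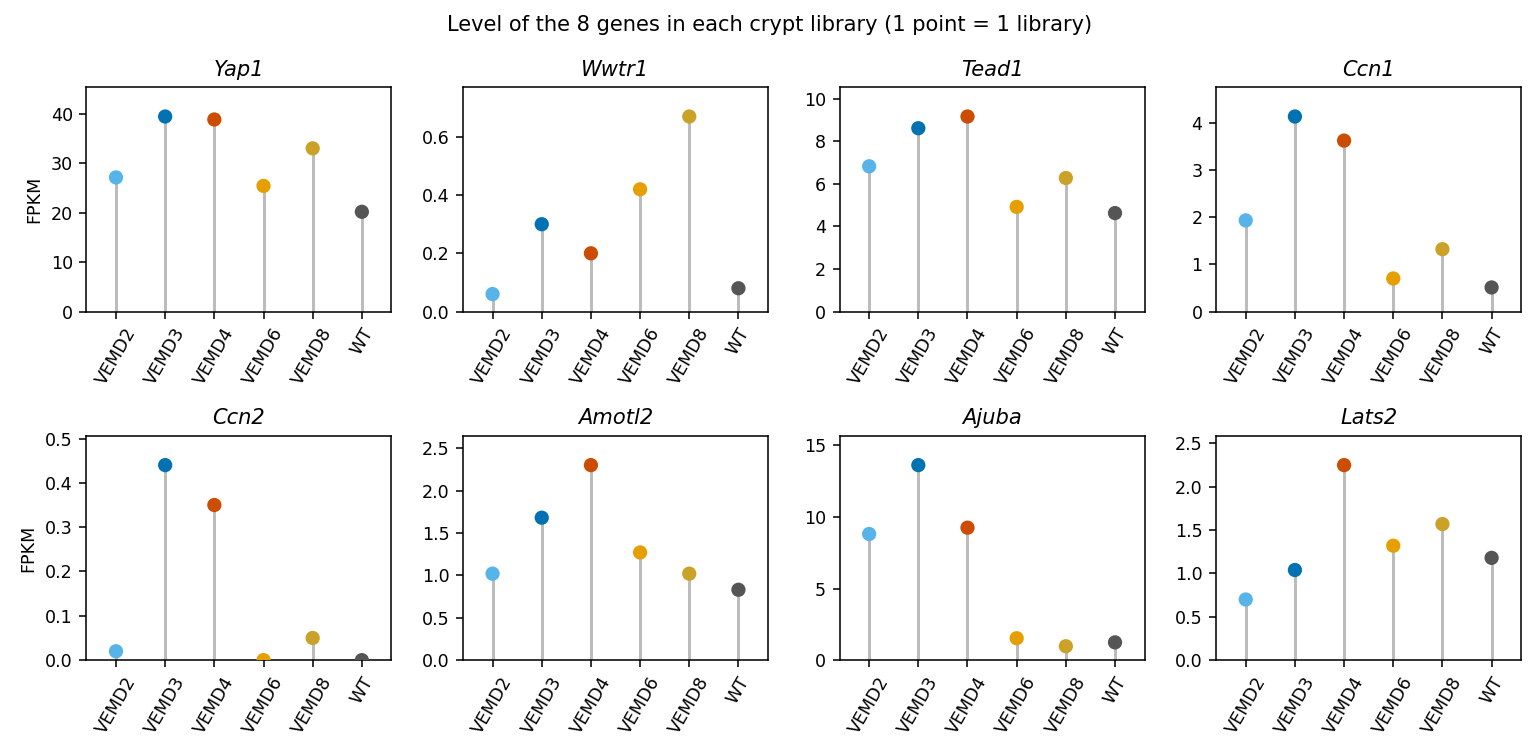
FPKM (vertical axes, each from 0) of the 8 genes in the 5 knockout crypt libraries and in WT, with 1 point per library and no error because each group is 1 library. Ajuba stood between 8.81 and 13.62 in VEMD2, VEMD3 and VEMD4 and between 0.97 and 1.53 in the other 3 libraries, while Wwtr1 and Ccn2 stayed under 1 FPKM in all 6.

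Yap1 (gene 22601, chromosome 9, 7931999 to 8004638 on GRCm38) was the most abundant of the 8 in every library. It was at 27.18 FPKM in VEMD2, 39.52 in VEMD3 and 38.92 in VEMD4, then 25.46 in VEMD6 and 33.07 in VEMD8, against 20.21 in WT. VEMD3 and VEMD4 were the highest, differing by little from each other, and all 5 knockout libraries lay above WT. The log2 ratios were 0.41, 0.93, 0.91, 0.32 and 0.68 in that order, so the 2 highest lay just short of 2-fold. The rescaled ratio in VEMD6 was 0.55. In WT, 76.7% of genes were below Yap1, and in VEMD3 86.5% were.

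Wwtr1 (gene 97064, chromosome 3, 57455644 to 57575910) encodes TAZ and was close to the lower end of what the table records. It was at 0.06 FPKM in VEMD2, 0.3 in VEMD3 and 0.2 in VEMD4, then 0.42 in VEMD6 and 0.67 in VEMD8, against 0.08 in WT. VEMD8 and VEMD6 were the highest, an order that no other member shared. Yap1 exceeded Wwtr1 by 49.4-fold in VEMD8, where the ratio was lowest, and by 252.6-fold in WT. At values this low and with the counts unknown, the ratios are rough.

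Tead1 (gene 21676, chromosome 7, 112679356 to 112906784) followed Yap1 in having its highest values in VEMD3 and VEMD4. It was at 6.83 FPKM in VEMD2, 8.62 in VEMD3 and 9.17 in VEMD4, then 4.92 in VEMD6 and 6.28 in VEMD8, against 4.63 in WT. VEMD6 and WT were the lowest and close together. The log2 ratios were 0.48, 0.77, 0.85, 0.07 and 0.37, with 0.31 in VEMD6 after rescaling.

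The other TEAD genes were not alike. Tead3 was the most abundant of the 4 in VEMD2, VEMD3, VEMD6, VEMD8 and WT, and it varied little, from 7.53 in VEMD8 to 10.52 in VEMD2, against 9.88 FPKM in WT. Tead2 was at 6.52 FPKM in VEMD3 and 5.74 in VEMD4, against 2.09 in WT, with log2 ratios of 1.28 and 1.13. Tead4 was at 1.29 FPKM in VEMD2, 1.52 in VEMD3 and 2.7 in VEMD4, then 0.48 in VEMD6 and 0.74 in VEMD8, against 0.25 in WT, and it was called in VEMD3 and VEMD4 with log2 ratios of 1.01 and 1.57. After rescaling the ratio of Tead4 in VEMD3 was 0.89, under 2-fold. Tead4 averaged 1.16 FPKM and passed the filter through VEMD3 and VEMD4, the libraries where it was called. Vgll4, which competes with YAP for TEAD factors, was at 17.26 FPKM in VEMD3 and 6.72 in VEMD6, against 9.14 in WT. Over the 4 tested genes of the TEAD and VGLL list, the medians were 0.42, 0.93, 0.77, -0.09 and 0.23 from VEMD2 to VEMD8, and that of VEMD6 was 0.14 after rescaling. The sum of the 4 TEAD genes was highest in VEMD3, at 27.01 FPKM, and lowest in VEMD6, at 15.76, against 16.85 in WT.

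**Figure D2:**
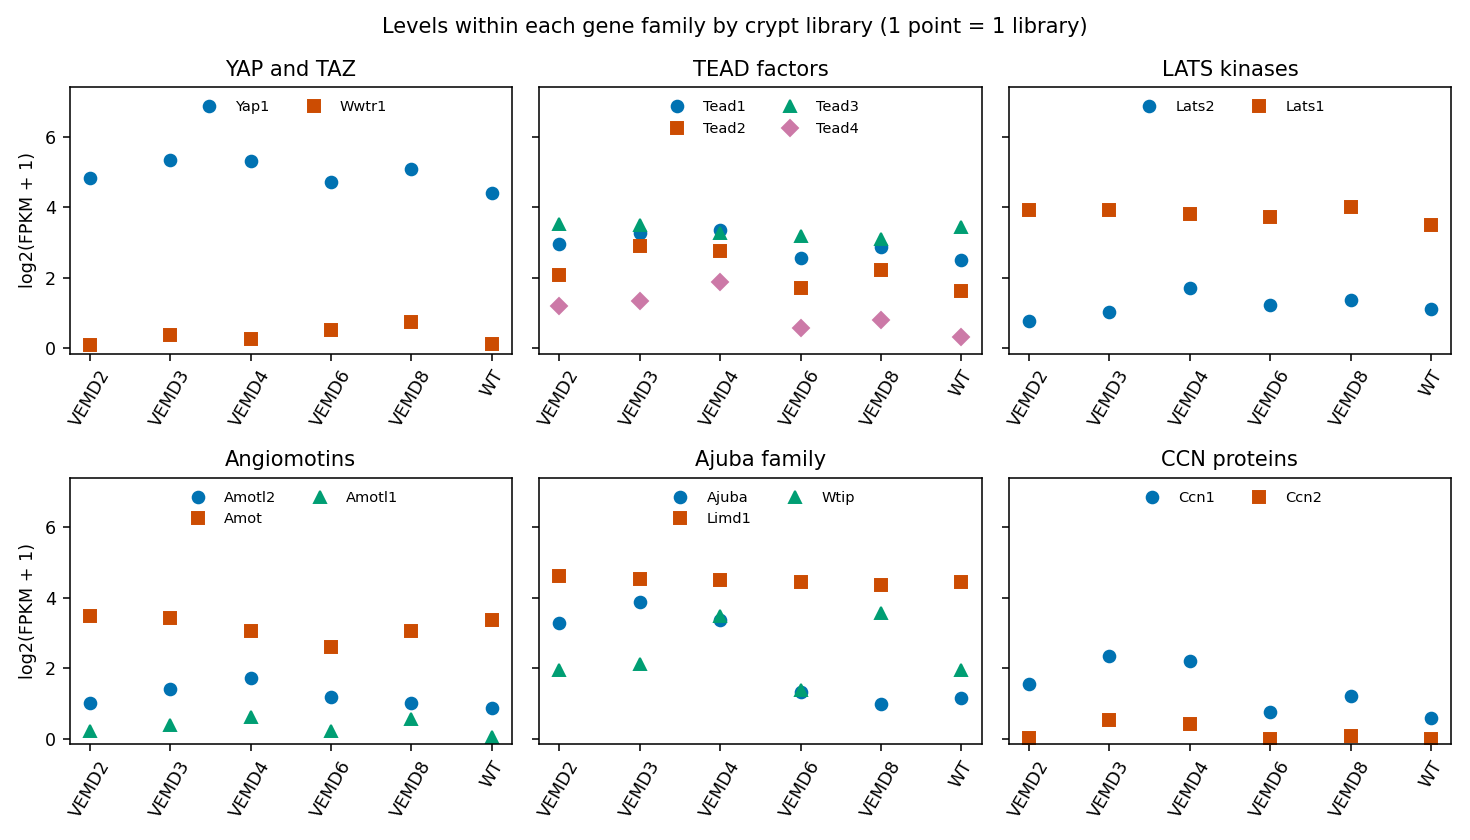
Levels on the scale log2(FPKM + 1) of the 8 genes and of members of their families in the 5 knockout crypt libraries and WT, with 1 point per library. Yap1 lies far above Wwtr1, Lats1 above Lats2 and Limd1 above Ajuba in all 6 libraries, while Wtip stands out in VEMD4 and VEMD8, at 10.12 and 10.86 FPKM against 2.88 in WT.

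Ccn1 (gene 16007, formerly Cyr61, chromosome 3, 145646971 to 145649985) encodes a matrix protein and is a widely used YAP target. It was at 1.93 FPKM in VEMD2, 4.13 in VEMD3 and 3.62 in VEMD4, then 0.7 in VEMD6 and 1.32 in VEMD8, against 0.51 in WT. VEMD3 and VEMD4 were far above the rest, and VEMD6 was close to WT. The log2 ratios were 0.96, 1.76, 1.61, 0.17 and 0.62, which placed VEMD3 and VEMD4 inside the 2-fold rule and VEMD2 just outside it, at 1.94-fold. In VEMD6 the rescaled ratio was 0.41. With a pseudocount of 0.1 FPKM in place of 1, VEMD2 and VEMD8 passed as well, at 1.73 and 1.22 on the log2 scale, beside 4.63% and 5.97% of tested genes called higher. With 5 FPKM Ccn1 passed in no library, and 2.38% of tested genes in VEMD3 and 3.53% in VEMD4 were called higher.

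Ccn2 (gene 14219, formerly Ctgf, chromosome 10, 24595442 to 24598683) encodes the related matrix protein CTGF, likewise a classic target. It was at 0.02 FPKM in VEMD2, 0.44 in VEMD3 and 0.35 in VEMD4, then 0.05 in VEMD8, and was listed at 0 in VEMD6 and in WT. VEMD3 and VEMD4 thus held nearly all of its signal, as they held the highest values of Ccn1. No fold is given against a library listed at 0.

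Both CCN genes are also strongly expressed by stromal cells and vessels, so markers of those cells were read beside them. Summed over 13 stromal genes, the level was 8.7 FPKM in VEMD2, 9.47 in VEMD3 and 7.31 in VEMD4, then 2.85 in VEMD6 and 3.7 in VEMD8, against 5.23 in WT. Vim and Tagln, which other cells express as well, were the only 2 of the 13 with a mean of at least 1 FPKM. Pdgfra, the defining receptor of gut fibroblasts, was at 0.01 FPKM in VEMD4 and was listed at 0 in the other 5 libraries. Dcn, a fibroblast proteoglycan, was at 0.07 FPKM in VEMD2 and 0.22 in VEMD3, with 1.3 in VEMD4, was listed at 0 in VEMD6 and VEMD8, and was at 0.09 in WT. The 5 endothelial genes with values summed to between 0.72 FPKM in VEMD6 and 2.07 in VEMD3, against 1.19 in WT. The 6 leukocyte genes summed to 9.07 FPKM in VEMD2, 13.6 in VEMD3 and 21.3 in VEMD4, then 7.3 in VEMD6 and 6.67 in VEMD8, against 8.66 in WT. All these sums were higher in VEMD3 and VEMD4 than in WT, as were Ccn1 and Ccn2, and their part in the result was not tested.

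Ccn1 is also known as an immediate early gene, one that cells switch on within minutes of a stimulus. Of 14 tested genes of that kind, the number called higher was 1 in VEMD2, 4 in VEMD3 and 7 in VEMD4, then 1 in VEMD6 and 2 in VEMD8, and 3, 1, 0, 0 and 1 were called lower. After rescaling 3 were called higher in VEMD6, namely Egr1, Ier3 and Junb. Among all tested genes, 2.44%, 6.00%, 7.11%, 5.04% and 4.36% were called higher from VEMD2 to VEMD8 without rescaling. The shares called lower were 2.39%, 4.63%, 5.04%, 8.15% and 5.21%. The medians of the 14 genes were -0.25, 0.06, 0.85, 0.15 and 0.04, with -0.06 in VEMD3 and 0.38 in VEMD6 after rescaling. Egr1, a zinc finger transcription factor, was called higher in all 5 knockout libraries, at 23.14 FPKM in VEMD2, 26.87 in VEMD3 and 26.94 in VEMD4, then 14.32 in VEMD6 and 16.62 in VEMD8, against 4.84 in WT. Dusp1, a phosphatase of MAP kinases, was called in VEMD4 alone, at 14.79 FPKM, and was between 1.19 and 2.68 in the other knockouts, against 2.53 in WT. Fosl1, a subunit of AP-1, was at 0.54 FPKM in VEMD2, 3.78 in VEMD3 and 5.34 in VEMD4, then 0.44 in VEMD6 and 0.15 in VEMD8, and was listed at 0 in WT. Nr4a1, an orphan nuclear receptor, was at 2.21 in VEMD3 and 4.25 in VEMD4, against 0.18 in WT. Fosl1 and Nr4a1 passed the filter through VEMD3 and VEMD4, where they were called higher. Fosb, called lower in VEMD2, VEMD3 and VEMD8, passed it through WT, at 2.41 FPKM. The counts were thus not drawn from genes free to move either way. Fos itself was at 36.41 FPKM in VEMD3 and 57.27 in VEMD4, against 46.49 in WT. The part of such stimulation in the values of Ccn1 was not tested.

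Amotl2 (gene 56332, chromosome 9, 102717091 to 102733418) encodes an angiomotin, a junction protein that binds YAP and holds it outside the nucleus. It was at 1.02 FPKM in VEMD2, 1.68 in VEMD3 and 2.3 in VEMD4, then 1.27 in VEMD6 and 1.02 in VEMD8, against 0.83 in WT. VEMD4 was the highest, and VEMD2 and VEMD8 were close to WT. The log2 ratios were 0.14, 0.55, 0.85, 0.31 and 0.14, and with a pseudocount of 0.1 FPKM the ratio in VEMD4 was 1.37, past 2-fold, as were 9.24% of tested genes. Its relative Amot was between 5.04 and 10.21 FPKM in knockouts and at 9.3 in WT, with its lowest value in VEMD6. Amotl1 stayed at or under 0.54 FPKM in all 6 libraries.

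Ajuba (gene 16475, chromosome 14, 54567469 to 54577661) encodes a LIM-domain scaffold of cell junctions that binds LATS kinases and restrains them. It differed from WT more than any other member. It was at 8.81 FPKM in VEMD2, 13.62 in VEMD3 and 9.25 in VEMD4, then 1.53 in VEMD6 and 0.97 in VEMD8, against 1.24 in WT. The libraries fell apart widely, with VEMD2, VEMD3 and VEMD4 high and VEMD6, VEMD8 and WT low, and no value lay between 1.53 and 8.81. The log2 ratios were 2.13, 2.71, 2.19, 0.18 and -0.19, or 2.04, 2.58, 2.17, 0.41 and -0.12 after rescaling. Being at least 2-fold higher in each of VEMD2, VEMD3 and VEMD4 was shared by 2.03% of tested genes, and being so in all 5 knockout libraries, which held for none of the 8 genes, by 0.571%. Likewise none was 2-fold lower in all 5, against 0.626% of tested genes. The order of the 3 high libraries above the 3 low ones was shared by 25.6% of tested genes, and by Tead1 and Ccn1 among the members.

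The 2 other genes of the Ajuba family did not share this pattern. Limd1, the most abundant, was between 19.72 and 23.55 FPKM in knockouts and at 20.64 in WT. Wtip was at 2.85 FPKM in VEMD2, 3.33 in VEMD3 and 10.12 in VEMD4, then 1.62 in VEMD6 and 10.86 in VEMD8, against 2.88 in WT, with log2 ratios of 1.52 in VEMD4 and 1.61 in VEMD8.

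Lats2 (gene 50523, chromosome 14, 57689662 to 57746212) encodes the LATS kinase that YAP is known to induce. It was at 0.7 FPKM in VEMD2, 1.04 in VEMD3 and 2.25 in VEMD4, then 1.32 in VEMD6 and 1.57 in VEMD8, against 1.18 in WT. VEMD4 alone stood out, and VEMD2 and VEMD3 lay below WT. The log2 ratios were -0.36, -0.10, 0.58, 0.09 and 0.24. Lats1 was the more abundant kinase throughout, between 12.11 and 14.9 FPKM in knockouts and at 10.35 in WT.

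**Figure D3:**
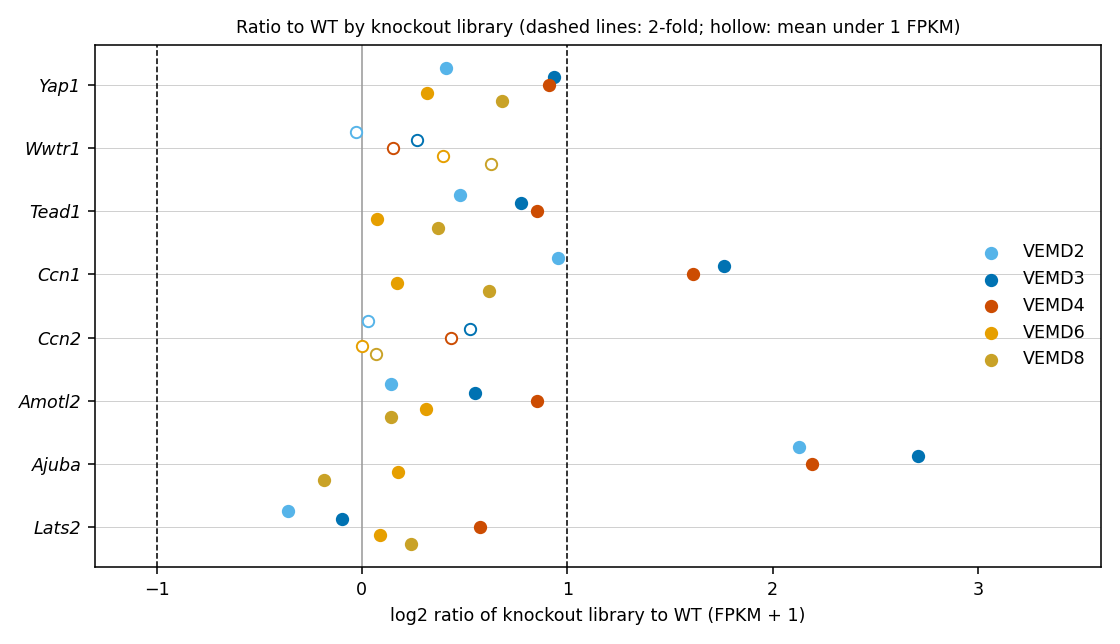
Log2 ratio of each knockout library to WT after adding 1 FPKM (horizontal axis) for the 8 genes, with 1 point per library, dashed lines at 2-fold, and hollow points for the 2 genes with a mean under 1 FPKM. Ajuba in VEMD2, VEMD3 and VEMD4 and Ccn1 in VEMD3 and VEMD4 lie beyond the upper line, and the lowest ratio of all is -0.36, for Lats2 in VEMD2.

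The median log2 ratio of the 6 tested members was 0.44 in VEMD2, 0.85 in VEMD3 and 0.88 in VEMD4, then 0.17 in VEMD6 and 0.30 in VEMD8, or 0.36, 0.73, 0.85, 0.41 and 0.37 after rescaling, beside a median of 0 for all tested genes on that scale. Members with low WT values passed the filter through high knockout values, which raises such medians.

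Upstream of YAP, none of the 16 tested genes of the kinase cascade was called lower in any library, beside 2.39% to 8.15% of all tested genes. Wwc2 was the single gene called higher, in VEMD3 and VEMD4, where 6.00% and 7.11% of tested genes were. With 16 genes, such counts do not stand apart from these shares. Wwc2, a scaffold related to KIBRA, was at 1.85 FPKM in VEMD3 and 1.86 in VEMD4, against 0.23 in WT. Averaging 1.09 FPKM, it passed the filter through VEMD3 and VEMD4. The medians of the cascade were 0.33, 0.38, 0.32, 0.00 and 0.37 from VEMD2 to VEMD8, or 0.24, 0.26, 0.29, 0.23 and 0.43 after rescaling. Wwc1, which encodes KIBRA itself, was at 35.15 FPKM in VEMD4, against 18.58 in WT, a log2 ratio of 0.88. Mob1a, a cofactor of LATS kinases, was at 37.59 in VEMD3, against 21.17 in WT. Taok1, a kinase that activates MST kinases, was at 12.33 in VEMD8, against 6.61 in WT.

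Among 11 tested regulators at junctions and of polarity, 0, 2, 3, 1 and 2 were called higher from VEMD2 to VEMD8 and none was called lower. After rescaling these counts were 1 in VEMD3, where Fat1 was at 0.995, and 2 in VEMD6, where Pals1 was at 1.22. Among all tested genes, 2.44%, 6.00%, 7.11%, 5.04% and 4.36% were called higher without rescaling, and 2.39% to 8.15% lower. With 11 genes, none lower does not stand apart from those shares. Fat1, a giant cadherin, was at 20.86 FPKM in VEMD2, 27.9 in VEMD3 and 29.34 in VEMD4, then 34.57 in VEMD6 and 28.6 in VEMD8, against 12.31 in WT. Dlg5, a scaffold of cell polarity, was at 9.17 in VEMD3 and 8.61 in VEMD4, against 2.68 in WT, with log2 ratios of 1.47 and 1.38. Pals1, listed in RefSeq as Mpp5, holds the Crumbs complex together and was at 28.47 in VEMD6, against 13.85 in WT, a log2 ratio of 0.99. The medians of this list were 0.13, 0.11, 0.30, 0.16 and 0.02, and that of VEMD3 was -0.015 after rescaling.

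Other genes known as YAP targets in human cells did not move as a block. Of 18 on the list, 17 had values and 8 passed the filter. From VEMD2 to VEMD8, 0, 2, 4, 1 and 0 of these 8 were called higher and 0, 1, 1, 0 and 1 lower, and after rescaling 2 were called higher in VEMD6. Without rescaling, 2.44%, 6.00%, 7.11%, 5.04% and 4.36% of all tested genes were called higher, and 2.39%, 4.63%, 5.04%, 8.15% and 5.21% lower. The medians of the 8 were -0.54, 0.08, 0.82, -0.10 and -0.08, or -0.62, -0.05, 0.79, 0.13 and -0.02 after rescaling. Nt5e, the surface nucleotidase CD73, was at 1.46 FPKM in VEMD2, 9.34 in VEMD3 and 24.51 in VEMD4, then 3.17 in VEMD6 and 2.02 in VEMD8, against 2.49 in WT. F3, which encodes tissue factor, was at 2.98 in VEMD2, 6.04 in VEMD3 and 6.74 in VEMD4, then 1.29 in VEMD6 and 3.15 in VEMD8, against 1.44 in WT. Both were highest in VEMD4. Myof, a membrane repair protein, was at 4.57 in VEMD4, against 0.9 in WT. Crim1, a transmembrane protein that binds bone morphogenetic proteins, went the other way, at 1.92 in VEMD8, against 7.39 in WT, a log2 ratio of -1.52. Gadd45a, named outside the rule because it was the gene called lower in VEMD3 and VEMD4, was at 14.65 and 14.57 there, against 33.33 in WT.

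**Figure D4:**
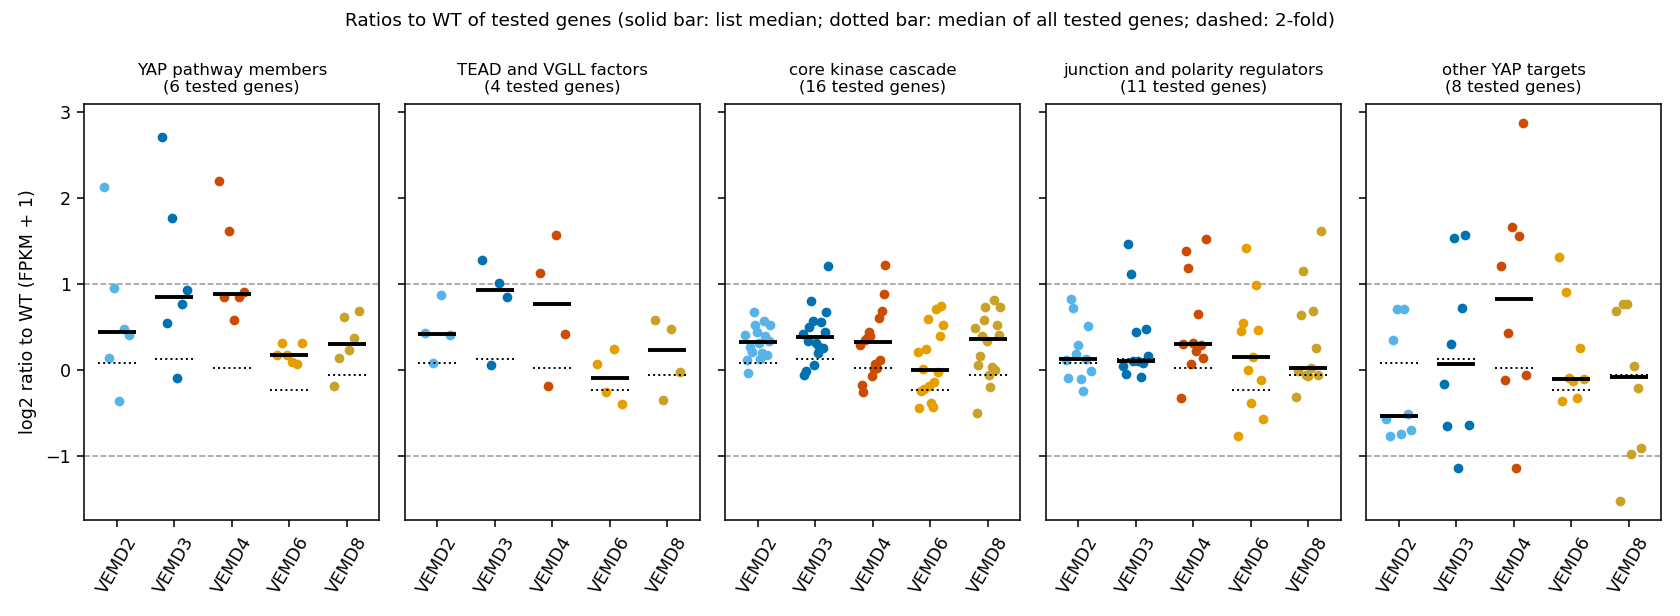
Log2 ratios to WT (vertical axis) of the tested genes of 5 lists in the 5 knockout libraries, with 1 point per gene, solid bars for list medians, dotted bars for the median of all 10862 tested genes and dashed lines at 2-fold. The medians of the kinase cascade lie above the dotted bars in all 5 libraries, with 1 gene, Wwc2, beyond 2-fold, while the other YAP targets spread to both sides, from -1.52 in VEMD8 to 2.87 in VEMD4.

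Genes of fetal and regenerative epithelium are often linked to YAP. Of 8 tested, 6, 8, 8, 6 and 8 were at least 2-fold higher from VEMD2 to VEMD8, or 5 in VEMD2 and 7 in VEMD6 after rescaling, beside the 2.44%, 6.00%, 7.11%, 5.04% and 4.36% of all tested genes given above. Anxa1, listed at 0 in WT, Clu and Ereg, at 0.38 and 0.52 FPKM in WT, passed the filter through their knockout values, so the counts were not drawn from genes free to move either way. Clu, a secreted chaperone, was at 77.2 FPKM in VEMD4 and 14.88 in VEMD6, against 0.38 in WT.

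For each tested member, the 3 genes most like it were sought by Pearson correlation of log2(FPKM + 1) over the 6 libraries, among 1546 genes, or 1545 for Ajuba, that averaged 5 FPKM or more and had an SD of 0.5 or more. These correlations describe 6 libraries that the genes share, and with so few libraries, high values are easily reached. Ajuba was most like Phlda3, Ccng1 and Plk2, all 3 known as p53 targets, at r of 0.996, 0.996 and 0.992. Phlda3 was at 21.56 FPKM in VEMD2, 48.17 in VEMD3 and 33.77 in VEMD4, then 0.36 in VEMD6 and 0.12 in VEMD8, against 0.27 in WT, so that the same 3 libraries were high. Ccn1 was most like Hr, a corepressor, Krt18, a keratin of simple epithelia, and Nox1, an oxidase, at r of 0.995, 0.992 and 0.991. Krt18 was also the closest to Tead1, at 0.99, followed by Pik3r3, a regulatory subunit of phosphoinositide kinases, and the myosin gene Myo1c. Krt18 was at 317.02 FPKM in VEMD2, 585.45 in VEMD3 and 597.12 in VEMD4, then 190.79 in VEMD6 and 290.68 in VEMD8, against 173.86 in WT.

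Yap1 was most like Mtr, methionine synthase, Apobec2, of the cytidine deaminase family, and Stn1, a telomere protein, at r of 0.99, 0.98 and 0.98. Oas3, an antiviral enzyme, and Rap2b, a small GTPase, were among the 3 most like Amotl2, both at 0.97. Oas3 was at 49.9 FPKM in VEMD4 and at or under 23.82 in the other knockouts, against 13.12 in WT. Lats2 was most like Ifit1 and Slfn2, both induced by interferon, and the stress factor Atf3, at 0.98, 0.96 and 0.97. Ifit1 was at 12.47 FPKM in VEMD2, 18.93 in VEMD3 and 79.57 in VEMD4, then 30.68 in VEMD6 and 32.44 in VEMD8, against 18.97 in WT, so that it was below WT in VEMD2 and level with it in VEMD3.

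**Figure D5:**
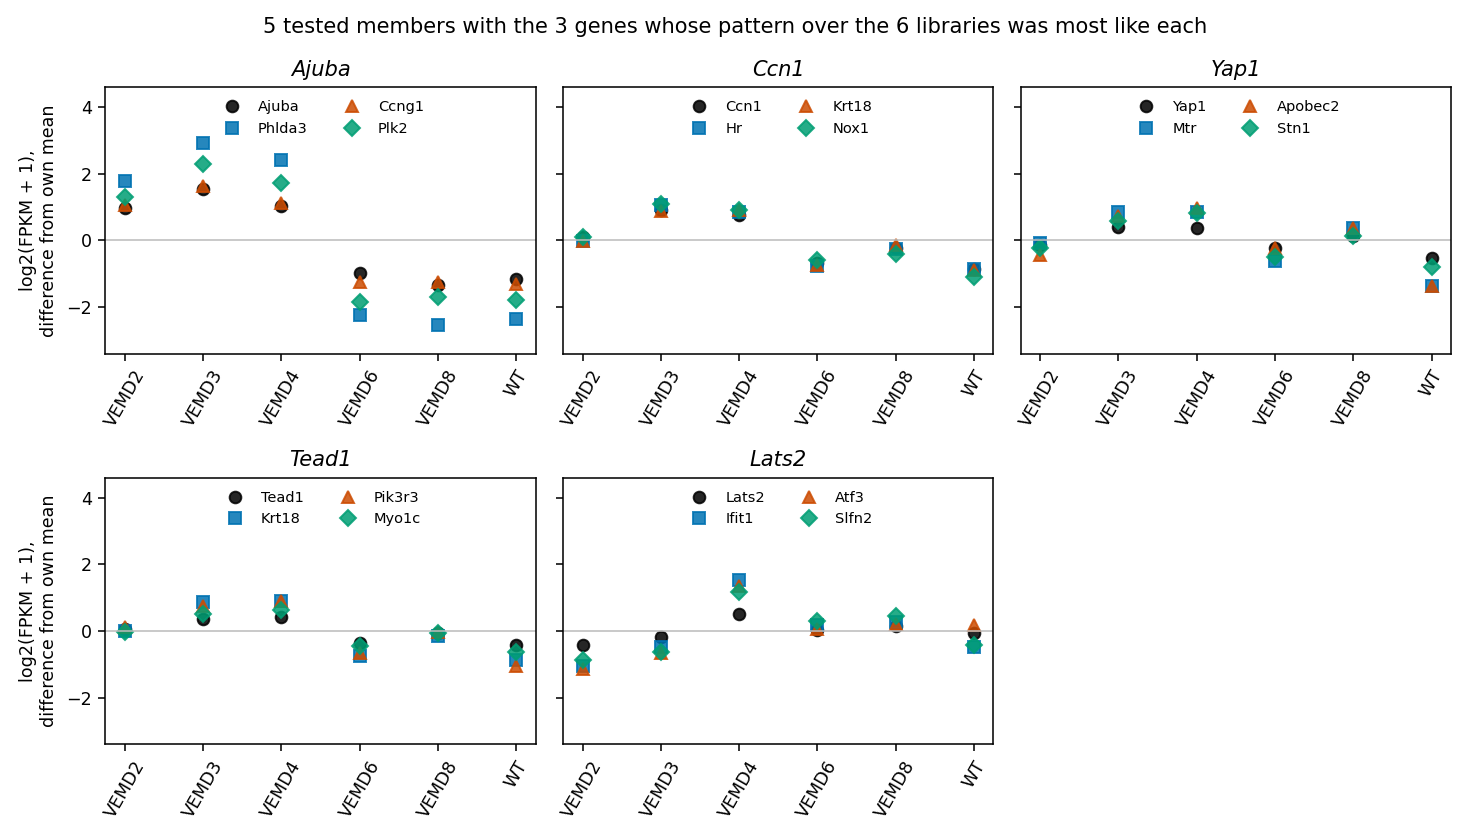
Level of Ajuba, Ccn1, Yap1, Tead1 and Lats2 (black circles) and of the 3 genes most similar to each in the 5 knockout libraries and WT, as the difference of log2(FPKM + 1) from the gene's own mean over the 6 libraries. Ajuba and its neighbours are high in VEMD2, VEMD3 and VEMD4, Ccn1, Tead1 and Yap1 and their neighbours peak in VEMD3 and VEMD4, and Lats2 and its neighbours peak in VEMD4.

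Annotation limits some of these values. On GENCODE M21, other annotated genes overlap Yap1, Wwtr1, Tead1, Ccn2 and Lats2, and none overlaps Ccn1, Amotl2 or Ajuba. Lats2 is overlapped by 3, among them Gm49361, a protein-coding model on the same strand. Whether counting used strand is not given in the sources used here, so reads of overlapping genes may not be told apart.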

How the data were processed

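RNA was measured in 8 samples, and the 6 crypt libraries were used. Stem cell libraries and the deposited repeat table were not used. Per the labels' protocols, RNA of frozen crypts was extracted with Trizol and sequenced by BGI-500 procedures. The tools HISAT2, featureCounts and edgeR and the builds GRCm38 and mm10 are named, per the submitters' processing notes. Versions, roles and filters are not given in the sources used here. The authors deposited FPKM rounded to 2 decimals, per the file headers. Of 20718 lines, 3760 held no value. The remaining 16958 genes were named by RefSeq on GRCm38.p6, which matched 16916. Low values showed no steps of whole reads, as ratios to WT filled no bin above 5.05% of low genes, so depth is unknown and no interval is given.

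Python 3.11.15 with pandas 2.3.3 and numpy 2.4.6 was used. Members and lists were chosen with earlier results of these data known. Named genes are the members, Setdb1, up to 4 tested genes per list by the size of their ratio, and the 3 most similar per member. Relatives of members, marker genes used as checks, Fos, Fosb and Gadd45a were added. Not all genes under the rule are reported. Alternatives were pseudocounts of 0.1 and 5 FPKM, no filter, rescaling and leaving out libraries.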

Additional observations from a re-analysis of the deposited data

Results flagged for a closer look

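Muc2, the mucin of goblet cells and 1 of the 7 crypt markers, was at least 2-fold from WT in opposite directions in different knockout libraries. Its log2 ratio was 1.24 in VEMD4 and -1.16 in VEMD6, from 246.11 FPKM in VEMD4 and 45.97 in VEMD6, against 103.66 in WT. After rescaling to the median gene the ratio in VEMD6 was -0.92, under 2-fold, so that the opposite calls were lost. The difference was not tested, since each group is 1 library. None of the 8 YAP pathway genes moved 2-fold in opposite directions.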

How the results depend on the processing

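No paired analysis was possible because no group has more than 1 library. With a pseudocount of 0.1 FPKM, the members called were 2 in VEMD2, 3 in VEMD4 and 1 in VEMD8, and 4 varied at least 2-fold over the 6 libraries, in place of 1, 2, 0 and 2. With 5 FPKM, 1 was called in VEMD3, 1 in VEMD4, and 1 varied 2-fold, which was Ajuba each time. Of 40 ratios, 8 passed 2-fold only with 0.1 and 2, both of Ccn1, no longer did with 5. Removing the filter or rescaling changed none of these counts, and rescaling changed the sign of 1 ratio, that of Ccn2 in VEMD2. Leaving out 1 library at a time, the count called in all remaining knockouts stayed at 0 and the count that varied 2-fold at 2. By choices made after seeing the data, Ajuba alone, 1 gene, was called in all knockouts without VEMD6 and VEMD8, 0 without VEMD2, VEMD3 and VEMD4, and 1 varied 2-fold without VEMD3 and VEMD4. Genes near 1 FPKM rest on an unknown number of reads.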
